A study of Mus musculus with 6 samples.

Results

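The genes described here are 45 genes that drive, execute or restrain cell division: cyclins, cyclin-dependent kinases (CDKs) and their inhibitors, DNA replication and mitosis genes, and the p53 branch that halts the cycle. They were taken as a named list, and a gene counted as measured when the array carried a probe set annotated to its symbol alone. With 1 probe set per gene, the one with the highest mean over the 6 arrays, 43 of the 45 were measured among 18193 genes in all. Ccnb1 and Trp53 were not analysed here.

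The samples were hearts of mice aged 9 months, with 3 hearts and 1 Affymetrix array each in 2 groups. GRK2+/- mice were heterozygous for the Adrbk1tm1Mca allele, which disrupts the gene of the G protein-coupled receptor kinase GRK2 in every tissue, and had been backcrossed onto C57BL/6J. Wild-type (WT) littermates were C57BL/6J. RNA came from the upper part of the heart, taken after arrest with potassium chloride under isoflurane, so each value mixes cardiomyocytes with vascular, connective tissue and blood cells. Cardiomyocyte markers were abundant on every array, at a mean log2 level of 13.69 to 13.75 over 10 genes, 1 of them near background. In such tissue, fewer cells of a type and less RNA per cell cannot be told apart.

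The cell cycle is a relay of kinases. D-type cyclins with CDK4 or CDK6 inactivate the retinoblastoma protein in G1, which frees E2F factors to switch on cyclin E and the replication genes of S phase. Cyclin A and cyclin B with CDK1 then carry the cell through G2 and mitosis, whose genes are held silent in resting cells by a repressor complex named DREAM. CDK inhibitors of the CIP/KIP and INK4 families oppose each step, and p53 raises several brakes after damage. Adult cardiomyocytes have largely left the cycle, so messages of mitosis in the adult heart are scarce.

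Promoters of many cell cycle genes carry short known elements. DREAM and its activating counterpart bind a short element called the CHR, searched here as TTTGAA, and nuclear factor Y binds CCAAT boxes, searched as CCAAT. E2F sites were searched as TTTGGCGC, TTTCGCGC or TTTCCCGC. Each was sought on both strands in windows of 250 bases before and 50 bases after the start (RefSeq, GRCm38.p6), which the table held for 35 of the 43 measured genes. The 200 bases before the start follow for Cdk1, which had the largest difference among the 12 measured mitosis members, and for Ccnb2 and Top2a, which carry several of these elements. Cdkn1a, the gene with the smallest p of all members, is shown from the upstream one of its 2 starts. Capitals mark CHR, CCAAT box and E2F letters in the first 3, read in either direction, and in Cdkn1a the p53 half-site, a pattern added after the sequences had been seen.
Cdk1, chr10:69352913-69353112, minus strand: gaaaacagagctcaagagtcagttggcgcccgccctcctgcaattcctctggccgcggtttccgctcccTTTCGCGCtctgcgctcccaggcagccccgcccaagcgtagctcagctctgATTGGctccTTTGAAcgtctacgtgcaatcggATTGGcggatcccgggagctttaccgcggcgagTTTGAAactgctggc
Ccnb2, chr9:70421555-70421754, minus strand: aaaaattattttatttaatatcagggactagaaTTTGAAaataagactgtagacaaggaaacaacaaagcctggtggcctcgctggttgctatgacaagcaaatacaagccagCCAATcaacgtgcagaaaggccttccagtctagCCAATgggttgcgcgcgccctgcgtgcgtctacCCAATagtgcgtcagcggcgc
Top2a, chr11:99024190-99024389, minus strand: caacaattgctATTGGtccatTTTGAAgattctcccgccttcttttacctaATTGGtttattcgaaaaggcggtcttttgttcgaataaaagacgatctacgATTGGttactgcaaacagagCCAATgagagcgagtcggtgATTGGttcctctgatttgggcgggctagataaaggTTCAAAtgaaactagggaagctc
Cdkn1a, chr17:29090779-29090978, plus strand: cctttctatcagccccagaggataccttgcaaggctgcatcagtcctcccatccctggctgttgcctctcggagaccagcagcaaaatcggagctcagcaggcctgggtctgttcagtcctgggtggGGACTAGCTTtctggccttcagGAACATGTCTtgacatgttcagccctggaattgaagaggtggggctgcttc
In Cdk1 the CHR letters began 71 and 15 bases before the start, CCAAT boxes 80 and 48 bases before it and an E2F match 131 bases before it. No 2 of the marked matches overlapped in Cdk1, Ccnb2 or Top2a. Of the 10 mitosis genes with a window, 8 held a CHR match (80%) and 9 a CCAAT box (90%), against 17.9% and 37.4% of 32851 windows of all genes. CCAAT boxes were not limited to the mitosis group: they were in 2 of 7 G1 windows (28.6%), 9 of 11 S phase windows (81.8%) and 5 of 5 windows of p53 and growth arrest genes (100%), whereas a CHR match was in 0 of 7, 1 of 11 and 0 of 5 of these. Windows of CDK inhibitors held a CCAAT box in 2 of 6 (33.3%) and a CHR match in 1 of 6 (16.7%). S phase windows held an E2F match in 5 of 11 (45.5%), against 1.84% of all windows. A p53 half-site was present in 8.36% of all windows and in 7 of 39 windows of measured members (17.9%). These 7 were windows of the p53 targets Cdkn1a, Ccng1, Gadd45a and Mdm2 and of Birc5, Bub1b and Tyms. These matches describe letters and are neither proven sites nor a cause.

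Each difference is the mean log2 level in GRK2+/- hearts less that in wild-type hearts, given with limma's standard error (SE, n = 3 hearts per group). None of the 43 genes passed an adjusted p of 0.05 (limma, Benjamini-Hochberg over all genes), and 0 of all 18193 genes (0%) did, although 42 genes passed with a prior that depended on level. The smallest was that of Cdkn1a (adjusted p = 0.0943), and the other members lay at 0.150 or above. At an unadjusted p under 0.05 there were 9 members lower and 1 higher in GRK2+/- hearts, beside 7.7% of all genes lower and 6.3% higher. The hearts did not overlap for 9 members on the lower side and 1 on the higher side, beside 11.6% and 7.44% of all genes. The median difference of the members was -0.085 against -0.019 over all genes, and 33 of 43 lay below 0 against 56.5% of all genes. With every array shifted to a common median, unadjusted calls over all genes split into 890 lower and 1546 higher in place of 1400 and 1146, the median of all genes was 0.010, and the members gave 8 lower and 1 higher with a median of -0.056. Without wild-type heart 3 the members' count was 5 lower and 1 higher, and that of all genes was 902 lower and 712 higher.

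**Figure D1:**
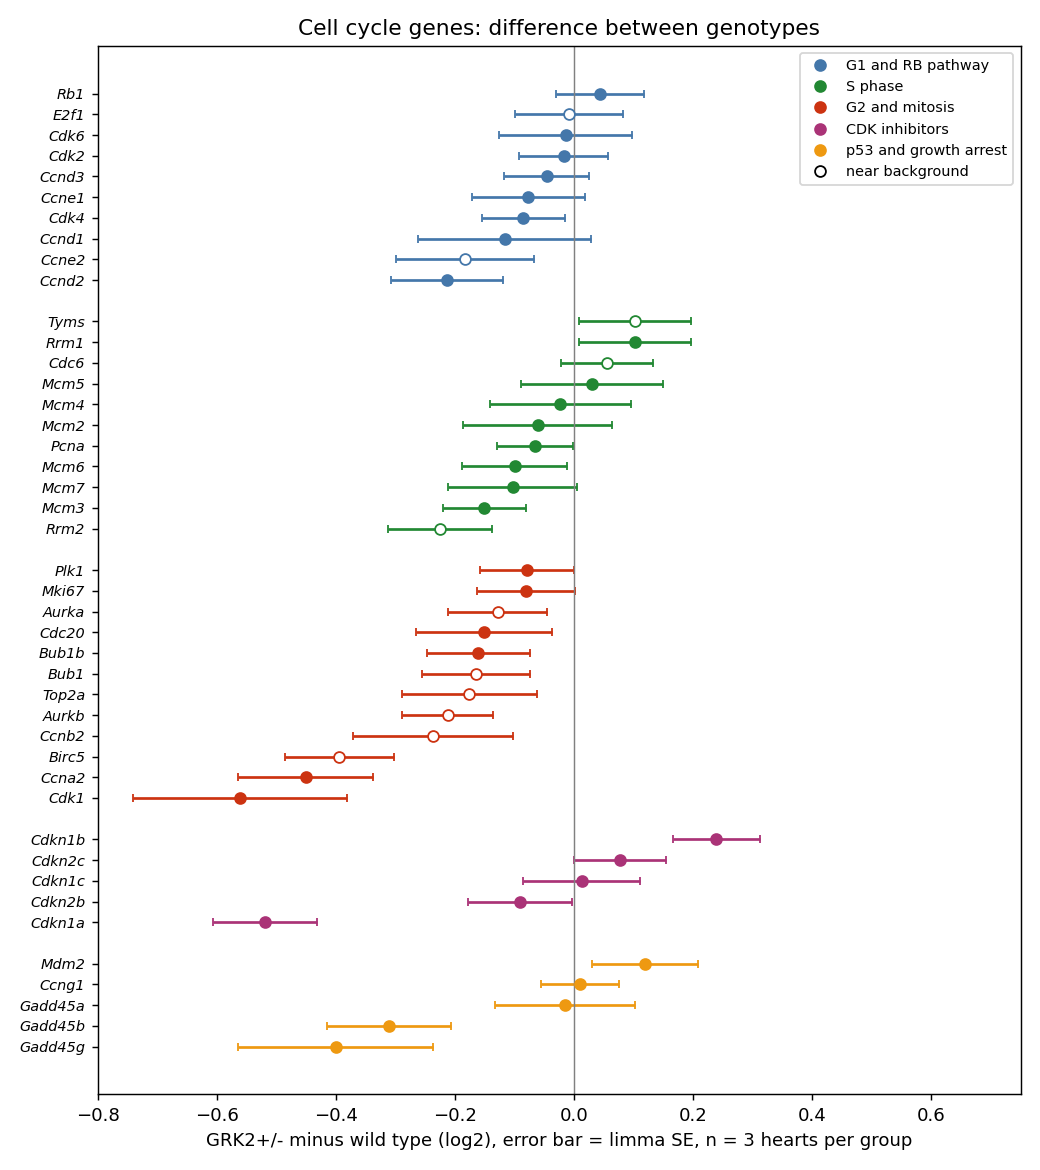
Difference between genotypes for each of the 43 measured cell cycle genes, by role (x axis: GRK2+/- minus wild type, log2; bars: limma SE, n = 3 hearts per group; open points: genes near background). All 12 genes of G2 and mitosis lie left of 0, while Cdkn1b lies at 0.24 and Cdkn1a at -0.52.

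A level near the bottom of the scale carries little signal over background. Here a gene was called near background when its mean over the arrays was at or below 6.43, the 95th percentile of 72 olfactory, vomeronasal and trace amine receptor genes, which the heart is not expected to use. By that limit 11 of the 43 members were near background: Ccne2 and E2f1 of G1, Cdc6, Rrm2 and Tyms of S phase, and Ccnb2, Top2a, Birc5, Aurka, Aurkb and Bub1 of mitosis. All genes near background had a median difference of -0.044 with 67.1% below 0, against -0.0011 and 50.4% for all genes above the limit, so level itself moved with the direction. In the mitosis group the 6 members above the limit had a median of -0.16 and the 6 near background a median of -0.19. Those above it were mostly dim too: Mki67, Ccna2, Cdk1 and Bub1b had means of 6.53 to 6.67. Of the 12 mitosis members, 11 lay below the median level of all genes (7.24). Without genes below that level only Plk1 was left, at -0.080.

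**Figure D2:**
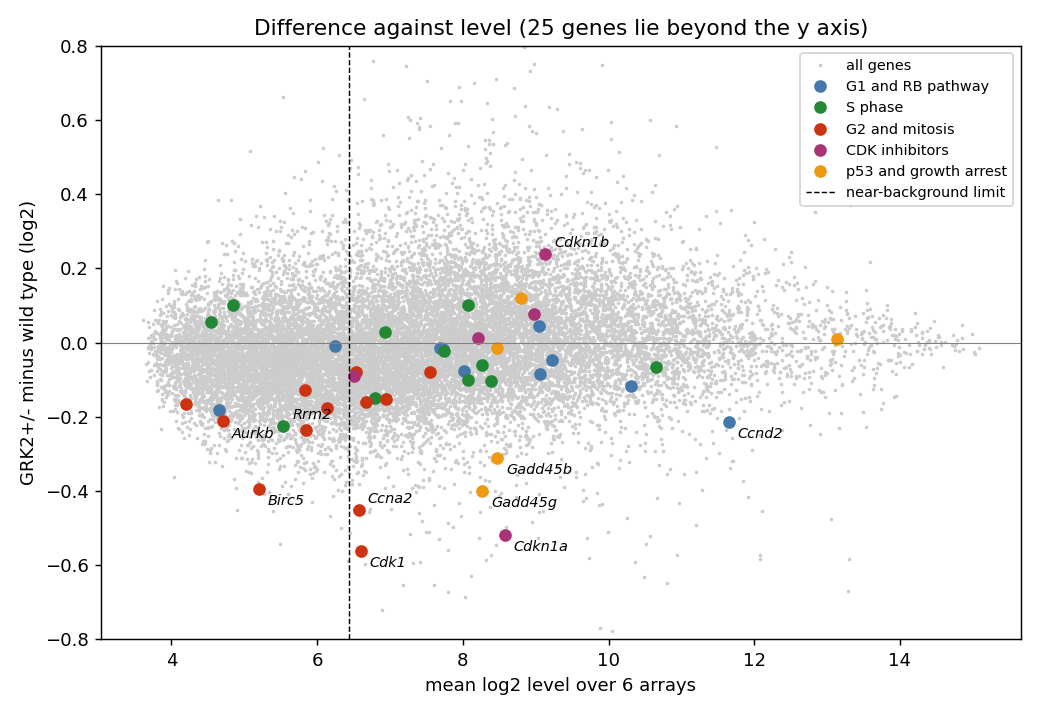
Difference (y axis: GRK2+/- minus wild type, log2) against mean log2 level over the 6 arrays (x axis) for all genes in grey and the members by role. The dashed line is the near-background limit of 6.43, 25 genes lie beyond the y axis, and Ccna2 and Cdk1 stand just right of the line at -0.45 and -0.56.

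G1 genes start the cycle, and most of them differed little between the genotypes. Of the 10 measured, 9 lay below 0, beside 56.5% of all genes. At an unadjusted p under 0.05, 1 of them was lower, beside 7.7% of all genes, and the median was -0.061. That median was -0.028 without wild-type heart 2 and -0.035 without GRK2+/- heart 1, and the count at an unadjusted p under 0.05 was 3 without GRK2+/- heart 2 and 0 without any one of GRK2+/- hearts 1 and 3 and wild-type heart 2. Ccnd1, cyclin D1, stood at 10.09, 10.57 and 10.10 in GRK2+/- hearts 1, 2 and 3 and at 10.43, 10.56 and 10.12 in wild-type hearts 1, 2 and 3. Its groups overlapped across their whole range, and the difference was -0.12 ± 0.15, from -0.28 without GRK2+/- heart 2 to -0.023 without wild-type heart 2. Ccnd2, cyclin D2, stood at 11.44, 11.62 and 11.58 in GRK2+/- and at 11.66, 11.95 and 11.68 in wild-type hearts. Every GRK2+/- heart was lower, although the nearest hearts almost touched, with a difference of -0.21 ± 0.09 (limma, unadjusted p = 0.0464, adjusted p = 0.35). Ccnd2 has 7 probe sets, of which 5 were below 0, and their mean gave -0.091. Without wild-type heart 2 the difference was -0.12.

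Cdk4, the partner kinase of the D cyclins, stood at 9.01, 9.01 and 9.05 in GRK2+/- and at 9.07, 9.05 and 9.20 in wild-type hearts. These groups were also apart, by a small step (-0.085 ± 0.07, limma, unadjusted p = 0.249) that was -0.039 without wild-type heart 3. The nearest hearts almost touched, at 9.045 and 9.053. The other probe sets of Cdk4, at -0.022 ± 0.08 and -0.016 ± 0.08, had overlapping groups. Rb1, the retinoblastoma gene, stood at 8.95, 9.12 and 9.11 in GRK2+/- and at 9.06, 9.02 and 8.96 in wild-type hearts, which overlapped (0.044 ± 0.07), and it was the only G1 member above 0. The remaining G1 genes were Ccnd3 at -0.046 ± 0.07, the cyclin E genes Ccne1 at -0.077 ± 0.09 and Ccne2 at -0.18 ± 0.12, Cdk2 at -0.018 ± 0.07, Cdk6 at -0.014 ± 0.11 and E2f1 at -0.0084 ± 0.09. Ccne1 ranged from -0.17 without wild-type heart 1 to -0.025 without wild-type heart 2, and Ccne2 from -0.29 without GRK2+/- heart 2 to -0.066 without GRK2+/- heart 1. The dimmer probe set of Ccne1 was at 0.072 ± 0.08, and the mean of both gave -0.0023. The signs of Cdk2, Cdk6 and E2f1 turned when arrays were shifted to a common median.

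The other G1 and RB pathway genes, 23 of 23 listed by role, were measured with a median of 0.0089. At an unadjusted p under 0.05, 3 were lower and 2 higher, beside 7.7% and 6.3% of all genes, and 0 passed after adjustment. The 2 on the higher side were the activating factor E2f3 (0.43 ± 0.12) and Fbxw7 (0.33 ± 0.07), part of the ligase that marks cyclin E for destruction. Those on the lower side were Lin52, a subunit of DREAM (-0.32 ± 0.09), and the repressor E2Fs E2f7 (-0.25 ± 0.09) and E2f8 (-0.18 ± 0.08), both near background.

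S phase genes license replication origins, copy DNA and supply nucleotides, and as a group they showed no single direction. Of the 11 measured, 7 lay below 0 and 4 above, beside 56.5% of all genes below 0, with a median of -0.061. At an unadjusted p under 0.05, 1 was lower, beside 7.7% of all genes. The split depended on the choice of probe sets. With probe sets averaged per gene 9 of the 11 lay below 0, beside 10743 of all 18193 genes. With the most variable probe set 6 did, beside 10565 of all genes. The sign of the median followed single hearts: leaving out GRK2+/- heart 1 gave 0.041, and leaving out wild-type heart 2 gave 0.020. Pcna, the sliding clamp of DNA polymerase, stood at 10.62, 10.61 and 10.64 in GRK2+/- and at 10.72, 10.66 and 10.69 in wild-type hearts. The hearts of each genotype lay close together and the groups did not overlap, yet the step was small (-0.066 ± 0.06, or 1.05-fold). Mcm3, a subunit of the replicative helicase, stood at 6.77, 6.74 and 6.64 in GRK2+/- and at 6.91, 6.80 and 6.89 in wild-type hearts. Its groups did not overlap either (-0.15 ± 0.07, unadjusted p = 0.0584 with limma), but with its most variable probe set Mcm3 was at 0.21.

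Rrm2 encodes the subunit of ribonucleotide reductase whose supply follows S phase. Its brightest probe set, near background, stood at 5.42, 5.45 and 5.39 in GRK2+/- and at 5.48, 5.80 and 5.67 in wild-type hearts. The groups did not overlap, with a difference of -0.23 ± 0.09 (limma, unadjusted p = 0.0273, adjusted p = 0.305), which was -0.15 without wild-type heart 2. The other probe sets of Rrm2 differed more, at -0.40 ± 0.15 and -0.78 ± 0.16, and the latter read 4.60, 5.31 and 4.94 in GRK2+/- against 5.56, 5.93 and 5.69 in wild-type hearts. For the large subunit, Rrm1, the probe sets went opposite ways: 0.10 ± 0.09 for the brightest and -0.21 ± 0.09 for the next, whose groups did not overlap. The remaining helicase subunits were Mcm2 at -0.061 ± 0.13, Mcm4 at -0.023 ± 0.12, Mcm5 at 0.030 ± 0.12, Mcm6 at -0.10 ± 0.09 and Mcm7 at -0.10 ± 0.11. Without GRK2+/- heart 1, Mcm6 was -0.041 and Mcm7 -0.0032. The second probe set of Mcm2 was apart between groups, at -0.28 ± 0.08. Of the 4 probe sets of Mcm7, 1 was apart between groups, at -0.22 ± 0.08, and the others overlapped. The helicase loader Cdc6 (0.055 ± 0.08) and thymidylate synthase Tyms (0.10 ± 0.09 with its brightest probe set) were near background. The other probe sets of Tyms lay below 0, at -0.095 ± 0.07, -0.15 ± 0.09 and -0.22 ± 0.08, and only the last was apart between groups.

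Of the other S phase genes, 38 of 41 listed were measured, with a median of -0.060 and 29 below 0 (76.3%, beside 56.5% of all genes). At an unadjusted p under 0.05, 6 were lower and 0 higher, beside 7.7% and 6.3% of all genes, and 0 passed after adjustment. The 6 were the polymerase subunit Pole (-0.33 ± 0.09), the helicase assembly factor Mcm10 (-0.32 ± 0.08), the primase subunit Prim2 (-0.30 ± 0.11), the flap nuclease Fen1 (-0.22 ± 0.08), the single-strand binding subunit Rpa2 (-0.20 ± 0.08) and the origin recognition subunit Orc1 (-0.18 ± 0.08). Pole, Mcm10 and Prim2, the 3 with the largest differences, were near background.

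G2 and mitosis genes were lower on average in GRK2+/- hearts in every measured case, 12 of 12. Below 0 were 56.5% of all genes and 67.1% of all genes near background. The median of the 12 was -0.17. The median stayed between -0.23 and -0.14 over the 11 alternatives that could move it with all 12 genes tested, each with all 12 below 0. At an unadjusted p under 0.05 there were 4 lower and 0 higher, beside 7.7% and 6.3% of all genes. With probe sets averaged per gene 7 were lower, beside 1517 of all 18193 genes. The hearts of 3 did not overlap, on the lower side, beside 11.6% of all genes. Among the 6585 genes near background, 593 were lower at that p and 867 were lower without overlap. Cdk1, the kinase that triggers mitosis, stood at 6.16, 6.79 and 5.99 in GRK2+/- and at 6.95, 7.002 and 6.68 in wild-type hearts. GRK2+/- heart 2 lay inside the wild-type range and the other two well below it. The difference was -0.56 ± 0.18, or 1.48-fold (limma, unadjusted p = 0.0111, adjusted p = 0.242), and -0.80 without GRK2+/- heart 2. Ccna2, cyclin A2, stood at 6.35, 6.54 and 6.14 in GRK2+/- and at 6.98, 6.71 and 6.69 in wild-type hearts. The groups did not overlap, with -0.45 ± 0.11, or 1.37-fold (limma, unadjusted p = 0.00275, adjusted p = 0.176). Its second probe set gave -0.51 ± 0.18, again without overlap.

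Birc5, survivin, a subunit of the chromosomal passenger complex that corrects spindle attachment, stood at 4.86, 5.20 and 4.96 in GRK2+/- and at 5.44, 5.40 and 5.36 in wild-type hearts. The wild-type hearts were tightly grouped above all GRK2+/- hearts, and the difference was -0.39 ± 0.09 (limma, unadjusted p = 0.00157, adjusted p = 0.15). Aurkb, the kinase of the same complex, stood at 4.61, 4.56 and 4.64 in GRK2+/- and at 4.89, 4.68 and 4.87 in wild-type hearts. Its groups did not overlap (-0.21 ± 0.08, limma, unadjusted p = 0.02, adjusted p = 0.276), and its second probe set gave -0.20 ± 0.08. Both genes were near background. Mki67, the proliferation antigen Ki-67, stood at 6.48, 6.63 and 6.36 in GRK2+/- and at 6.57, 6.63 and 6.52 in wild-type hearts. Its groups overlapped, and the difference of -0.081 ± 0.08 was within its error, from -0.15 without GRK2+/- heart 2 to -0.014 without GRK2+/- heart 3.

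**Figure D3:**
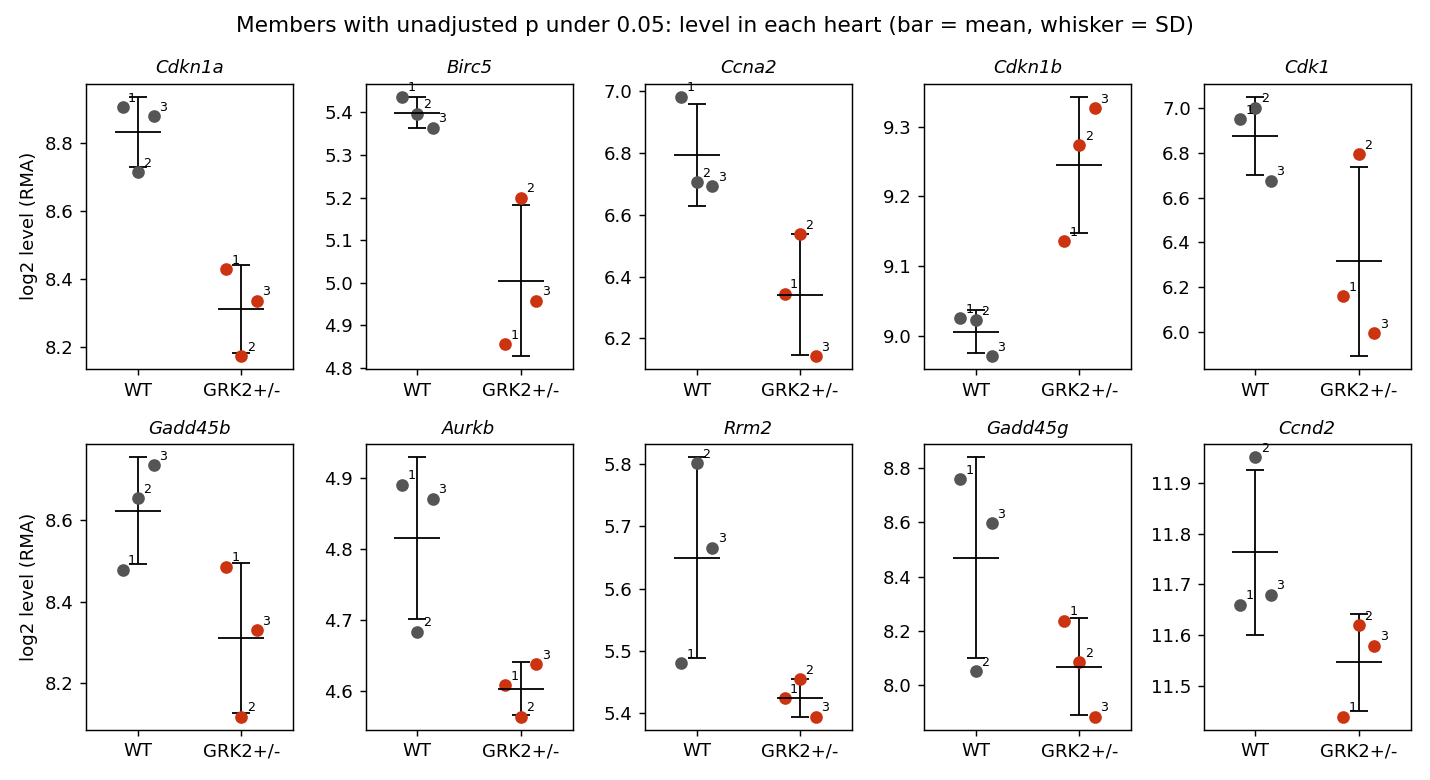
Log2 level in each heart (numbered points) for the 10 members with an unadjusted p under 0.05, with the mean (bar) and SD (whisker, n = 3 hearts per genotype); each panel has its own y axis. Points of the 2 genotypes do not overlap for Cdkn1a, Birc5, Ccna2, Cdkn1b, Aurkb, Rrm2 and Ccnd2, and overlap for Cdk1, Gadd45b and Gadd45g.

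The remaining mitosis genes were smaller in their differences or less even between hearts. Ccnb2, cyclin B2, was at -0.24 ± 0.13, the DNA topoisomerase Top2a at -0.18 ± 0.11, the checkpoint kinases Bub1 and Bub1b at -0.16 ± 0.09 each, and Cdc20, the activator of the anaphase-promoting complex, at -0.15 ± 0.11. The mitotic kinases Aurka and Plk1 were at -0.13 ± 0.08 and -0.080 ± 0.08. A dimmer probe set of Aurka was at 0.040 ± 0.09, with overlapping groups. Single hearts carried much of several of these values. Without GRK2+/- heart 3, Ccnb2 was -0.071, Cdc20 -0.014 and Aurka -0.060. Without wild-type heart 3, Top2a was -0.067 and Bub1 -0.073. Bub1b was -0.088 without GRK2+/- heart 2, and Plk1 -0.034 without wild-type heart 2. A second probe set of Top2a read 5.43, 5.87 and 5.35 in GRK2+/- and 6.24, 6.17 and 5.60 in wild-type hearts (-0.45 ± 0.18), so only wild-type heart 3 fell among the GRK2+/- values. The third and dimmest probe set of Top2a was at -0.027 ± 0.08, with overlapping groups.

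The other genes of G2 and mitosis, chosen by role, were measured for 45 of 45 listed and had a median of -0.12. Of these, 33 lay below 0 (73.3%), beside 56.5% of all genes and 67.1% of all genes near background. At an unadjusted p under 0.05 there were 12 lower and 1 higher, beside 7.7% and 6.3% of all genes, and 0 passed after adjustment. The 6 with the smallest p were the CDK1-binding protein Cks2 (-0.50 ± 0.10), the cytokinesis genes Anln (-0.35 ± 0.08) and Racgap1 (-0.35 ± 0.09), the spindle assembly factor Tpx2 (-0.59 ± 0.15), the chromosome kinesin Kif4 (-0.28 ± 0.08) and Cdca3 (-0.32 ± 0.10). Below 0 were 1 of 2 probe sets of Anln, 2 of 3 of Racgap1, 3 of 4 of Tpx2 and every one of Cks2, Kif4 and Cdca3. All 6 genes were near background by the limit above, as were 28 of the 45. Without genes below the median level of all genes, 13 of the 45 remained, with a median of -0.047 and 8 below 0. Cks2 stood at 6.13, 6.25 and 5.84 in GRK2+/- and at 6.54, 6.56 and 6.61 in wild-type hearts, which did not overlap.

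Averaged over each list and set against the wild-type mean, the hearts showed where these values sat. Over the 12 mitosis members GRK2+/- hearts lay at -0.22, -0.14 and -0.34, whereas wild-type values were -0.0020, -0.015 and 0.017, with no overlap. Over the 45 other mitosis genes GRK2+/- hearts lay at -0.12, -0.075 and -0.15, whereas wild-type values were -0.037, 0.031 and 0.0054, again apart. Over the 11 S phase members GRK2+/- hearts lay at -0.13, 0.034 and -0.026, whereas wild-type values were -0.045, 0.11 and -0.070, which overlapped. GRK2+/- heart 2 was the highest of its genotype in the lists of G1, S phase and mitosis members.

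**Figure D4:**
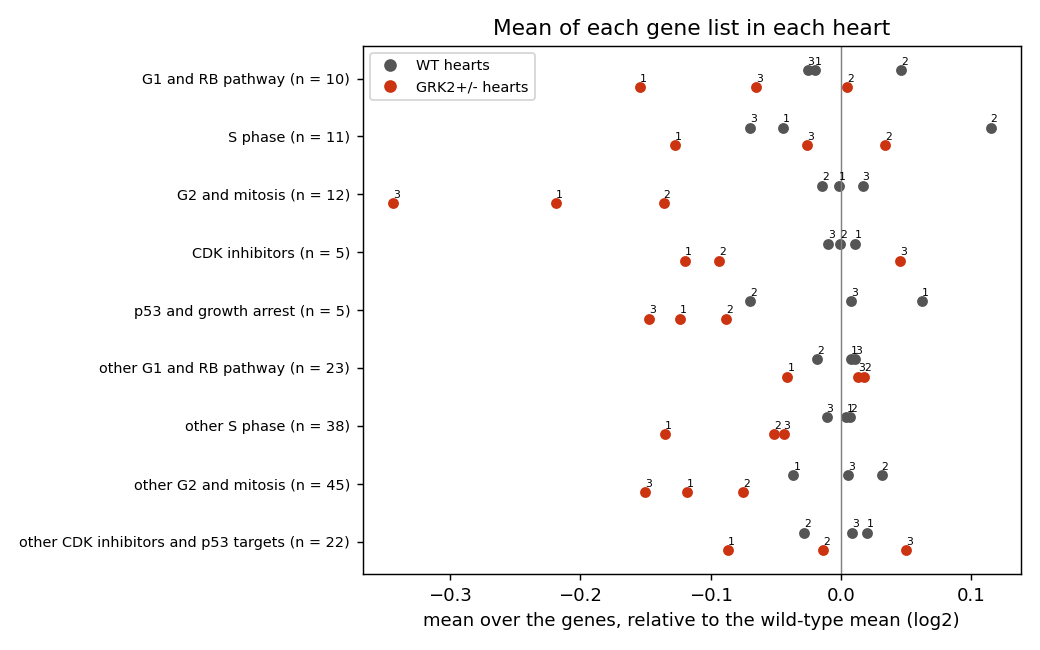
Mean over each gene list in each heart relative to the wild-type mean (x axis, log2; numbered points are hearts), for the 5 member lists and the 4 lists of other pathway genes. GRK2+/- hearts lie left of all wild-type hearts in both mitosis lists, in the p53 and growth arrest members and in the other S phase genes, whereas the genotypes overlap in the S phase members.

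CDK inhibitors, the brakes of the cycle, went in opposite directions. Cdkn1a, p21, which p53 and other stress signals induce, stood at 8.43, 8.18 and 8.34 in GRK2+/- and at 8.91, 8.71 and 8.88 in wild-type hearts. All GRK2+/- hearts were clear of the wild-type hearts, at -0.52 ± 0.09 or 1.43-fold (limma, unadjusted p = 0.000154, adjusted p = 0.0943), the 28th smallest p of all genes. Its second probe set was at -0.39 ± 0.08, also without overlap. When the prior variance depended on level, Cdkn1a passed (limma, adjusted p = 0.0433), and over the other alternatives its adjusted p lay between 0.0535 and 0.371. Cdkn1b, p27, a CIP/KIP inhibitor typical of resting cells, stood at 9.14, 9.27 and 9.33 in GRK2+/- and at 9.03, 9.02 and 8.97 in wild-type hearts. It was higher in all 3 GRK2+/- hearts, at 0.24 ± 0.07 or 1.18-fold (limma, unadjusted p = 0.00868, adjusted p = 0.228). The dimmer probe set of Cdkn1b was at -0.11 ± 0.09, and the mean of both gave 0.062. Cdkn1c, p57, was at 0.013 ± 0.10, and the INK4 genes Cdkn2b (p15) and Cdkn2c (p18) were at -0.091 ± 0.09 and 0.078 ± 0.08, each with overlapping groups.

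Genes of p53 and growth arrest were represented by 5 of 6 listed. At an unadjusted p under 0.05, 2 of them were lower, beside 7.7% of all genes. The count was 0 when either GRK2+/- heart 2 or wild-type heart 3 was left out. Gadd45b, a stress-induced regulator of MAP kinase signalling, stood at 8.49, 8.12 and 8.33 in GRK2+/- and at 8.48, 8.66 and 8.74 in wild-type hearts. The groups overlapped narrowly, since heart 1 of each genotype was at nearly the same level, with -0.31 ± 0.10 (limma, unadjusted p = 0.0138, adjusted p = 0.252). Another probe set of Gadd45b did not overlap, at -0.46 ± 0.14, but the dimmest one did, at -0.081 ± 0.09. Gadd45g, its relative, stood at 8.24, 8.09 and 7.88 in GRK2+/- and at 8.76, 8.05 and 8.60 in wild-type hearts. Wild-type heart 2 sat among the GRK2+/- hearts, and the difference of -0.40 ± 0.16 (limma, unadjusted p = 0.0348, adjusted p = 0.324) was -0.61 without that heart and -0.26 without wild-type heart 1. Gadd45a, the third of the family and a p53 target, was at -0.015 ± 0.12. Mdm2, the ligase that degrades p53 and is itself its target, was at 0.12 ± 0.09 with its brightest probe set. Another of nearly the same level was at -0.11 ± 0.07 and lower in all GRK2+/- hearts than in any wild-type heart, and the third was at -0.13 ± 0.10. Ccng1, cyclin G1, another p53 target, was at 0.0098 ± 0.07 with its brightest probe set, but the other two, at -0.22 ± 0.07 and -0.17 ± 0.08, were lower in all GRK2+/- hearts than in any wild-type heart.

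Other CDK inhibitors and p53 targets were measured for 22 of 23 listed, with a median of -0.0087. At an unadjusted p under 0.05, 3 were lower and 1 higher, beside 7.7% and 6.3% of all genes, with 0 after adjustment. Sesn1, a stress-induced inhibitor of mTOR signalling, stood at 10.90, 10.44 and 10.62 in GRK2+/- and at 11.28, 11.09 and 11.31 in wild-type hearts, without overlap (-0.57 ± 0.11, with 4 of 4 probe sets below 0). Trp53inp1, a cofactor of p53, was at -0.40 ± 0.08, the death receptor Fas at -0.24 ± 0.10 and the kinase Plk2 at 0.29 ± 0.10. Of the 2 probe sets of Plk2, 1 was below 0.

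A gene's probe sets did not always point the same way. The 43 genes had 100 probe sets, and of the 30 genes with more than 1, all probe sets of 14 pointed in 1 direction. Over the 57 probe sets not chosen for the gene values, the groups did not overlap for 14 on the lower side and 0 on the higher side, beside 11.2% and 6.76% of all 45037 probe sets. Probe sets of a gene share the same hearts and partly the same transcript, so they are no independent replicates.

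**Figure D5:**
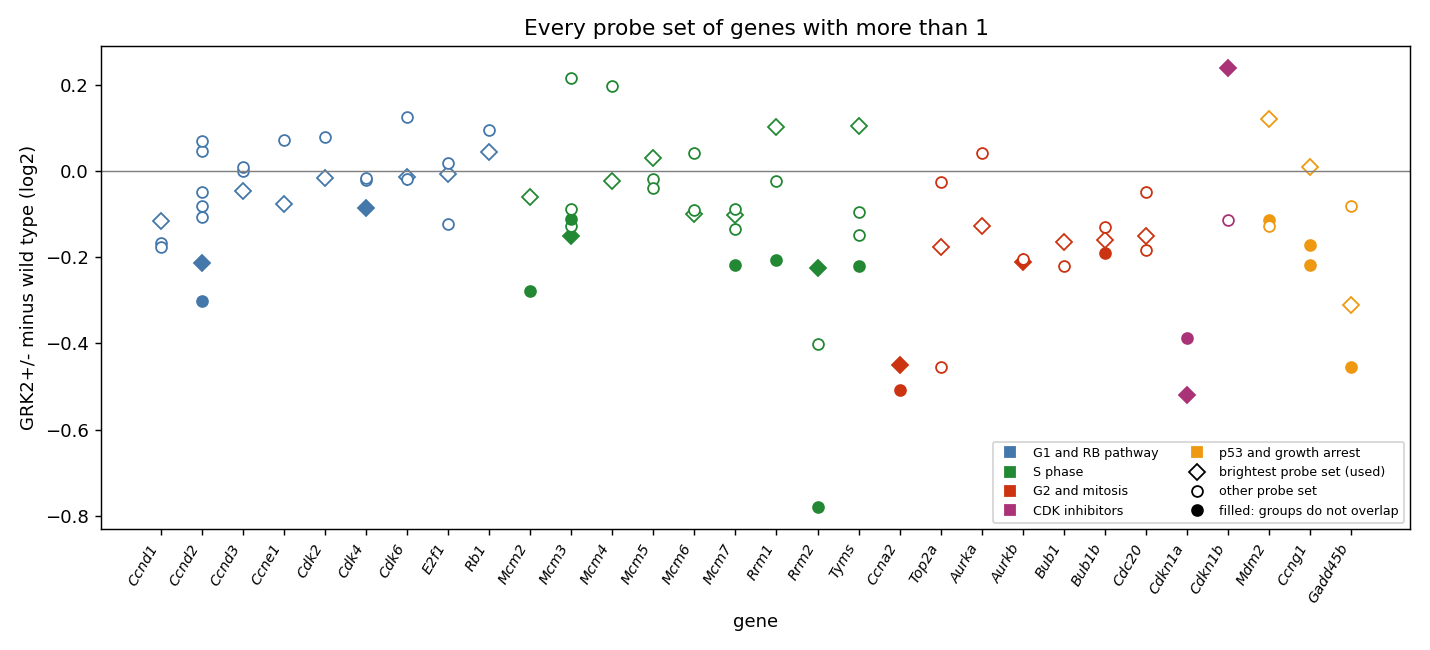
Difference (y axis: GRK2+/- minus wild type, log2) of every probe set for the 30 members with more than 1 (x axis); diamonds are the brightest probe sets, and filled symbols mark groups that do not overlap. Both probe sets of Cdkn1a and of Ccna2 are filled and below 0, while Rrm2 spans -0.23 to -0.78.

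Markers of the cell types that the tissue holds besides cardiomyocytes had medians above 0. At an unadjusted p under 0.05, 0 of each list were lower and 0 to 2 higher, beside 7.7% and 6.3% of all genes. Over 9 measured leukocyte markers of 10 listed, 3 were below 0 and the median was 0.13; the mean log2 level was 8.14 to 8.23 in GRK2+/- and 8.01 to 8.18 in wild-type hearts. For 8 endothelial markers, 1 was below 0 with a median of 0.12, and the level was 9.23 to 9.36 and 9.03 to 9.22. Fibroblast markers (8, median 0.13, levels 10.20 to 10.34 and 10.10 to 10.23) and smooth muscle and pericyte markers (8, median 0.15, levels 9.35 to 9.56 and 9.26 to 9.35) likewise had 2 each below 0. Erythroid markers (4 of 6 measured, 2 of them near background) had a median of 0.13, with levels of 6.79 to 6.85 and 6.59 to 6.87. List means relative to wild type were also apart, on the higher side, for cardiomyocyte markers (0.037 to 0.044 against -0.013 to 0.0077). The same held for endothelial markers (0.088 to 0.22 against -0.11 to 0.083) and, barely, for smooth muscle and pericyte markers (0.045 to 0.25 against -0.046 to 0.044). Those of fibroblast, leukocyte and erythroid markers overlapped. As a measure of RNA integrity, beta-actin signal at the 3′ end exceeded that at the 5′ end by 0.98 ± 0.08 in GRK2+/- and by 0.78 ± 0.04 in wild-type arrays (log2, SD, n = 3). For Gapdh these values were 0.030 ± 0.02 and 0.0051 ± 0.04. Array medians lay between 6.26 and 6.31. The part of cell makeup or RNA integrity in the cell cycle values was not tested.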

How the data were processed

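The deposited values, 1 Affymetrix array per heart, are log2 probe set levels that the authors made with RMA, and limma is also named per the submitters' processing notes; the sources used here give neither a version nor whether all arrays were normalised together. The table held 45101 probe sets. Leaving out 64 controls gave 45037, of which 34945 had 1 gene symbol in the platform annotation, 932 several and 9160 none; 34741 symbols were updated through the Entrez identifier to RefSeq (GRCm38.p6). The brightest probe set per gene gave 18193 genes. Grk2 itself was not analysed here, so the genotype was not checked by its gene. Genotypes were compared with limma 3.58.1 in R 4.3.3 (lmFit, eBayes, two-sided), adjusted over all genes, and the steps were checked on simulated data. The smallest p that exact permutation of 3 against 3 hearts allows is 0.1, and precision is limited by how few arrays there are. The labels do not say that same-numbered hearts are paired, so no block was used. In a separate check same-numbered hearts did not deviate together.

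The members, gene lists, motifs and tests were chosen with earlier results of these data known. By rule, every measured member was named, with values per heart where the unadjusted p was under 0.05, the groups did not overlap or the gene is the textbook member of its role, and up to 6 other pathway genes per list by smallest p. Alternatives were centring, quantile normalisation, other probe set rules, filters on dim genes, another prior, array weights, the replicate block and leaving out each heart.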

Additional observations from a re-analysis of the deposited data

How the results depend on the processing

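The replicate block, the prior with trend, the filters on dim genes and the test of all probe sets leave a difference as it is. Of the 43 members, 28 kept their direction under each of the 11 alternatives that can move it, and 15 turned in at least 1, all of them with a reported unadjusted p above 0.05. Only Cdkn1a passed the threshold under any alternative. With arrays shifted to a common median, differences that turned were Cdk2 0.011, Cdk6 0.015, E2f1 0.021, Mcm4 0.0058 and Gadd45a 0.014. After quantile normalisation they were E2f1 0.019 and Cdkn1c -0.0095, and with array weights Cdk6 0.023, Mcm4 0.0060 and Gadd45a 0.013. With probe sets averaged per gene they were Cdk2 0.030, Cdk6 0.031, Mcm4 0.087, Mcm5 -0.010, Rrm1 -0.043, Tyms -0.090, Mdm2 -0.041 and Ccng1 -0.13. With the most variable probe set they were Ccnd3 0.0084, Cdk6 0.13, Mcm3 0.21, Mcm4 0.20, Mcm6 0.040, Rrm1 -0.21, Tyms -0.22, Mdm2 -0.13 and Ccng1 -0.22. Leaving out 1 heart at a time gave ranges of -0.072 to 0.0055 for Ccnd3, -0.055 to 0.034 for Cdk2, -0.087 to 0.12 for Cdk6, -0.088 to 0.082 for E2f1, -0.18 to 0.041 for Mcm2, -0.14 to 0.10 for Mcm4, -0.056 to 0.18 for Mcm5, -0.069 to 0.089 for Cdkn1c, -0.014 to 0.037 for Ccng1 and -0.13 to 0.12 for Gadd45a. The median of G1 members was -0.087 to -0.028 in the same way, and that of S phase members -0.088 to 0.041. The CDK inhibitor median was -0.069 to 0.086 and that of p53 and growth arrest -0.13 to 0.0069. The p53 and growth arrest median was -0.13 with the mean of the probe sets and -0.22 with the most variable one. The count of all genes past the threshold, 0 as reported, was 12 with the most variable probe set, 6 without genes below the median, 42 with a prior with trend, 12 with array weights and between 0 and 56 when 1 heart was left out, the highest without GRK2+/- heart 1. At an unadjusted p under 0.05 it was 2546, 1553 without genes below the median, 5780 over all probe sets and 1614 to 3031 when 1 heart was left out, the lowest without wild-type heart 3. With the replicate number as a block, 1 gene passed and no member changed its call; same-numbered hearts correlated in their deviations at -0.18, -0.0051 and 0.016, and the labels give no pairing. By the 25th percentile of the gene table (5.77), 7 members in place of 11 were near background. The causes were not tested.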
